A study of Mus musculus with 24 samples.

Results

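The colony-stimulating factors are secreted proteins that govern the growth, survival and activation of macrophages and granulocytes. The genes described here are 3 ligands, Csf1 (encoding M-CSF), Csf2 (GM-CSF) and Csf3 (G-CSF), and 4 receptor genes, Csf1r, Csf2ra, Csf2rb and Csf3r. A gene was taken as a member when its symbol in the deposited expression tables of mouse macrophages equalled 1 of these names. The rule found 7 of the 56691 genes of each table, and all 7 had a level above 0 in at least 1 library of each cell type. Levels are given in FPKM, fragments per kilobase of gene scaled to the total of the library, which can be compared between genes.

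M-CSF binds the receptor tyrosine kinase encoded by Csf1r and keeps macrophages alive, and it is supplied by many tissues without stimulation. GM-CSF binds a complex of an alpha chain that recognises it (Csf2ra) and a beta chain that signals through JAK2 and STAT5 (Csf2rb), while G-CSF binds the receptor encoded by Csf3r, which is best known on neutrophils. Macrophages make GM-CSF and G-CSF mainly after stimulation, for example by bacterial lipopolysaccharide (LPS), and both mRNAs carry AU-rich elements that speed their decay.

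The study sequenced poly(A) RNA from cells with and without a knockout of Olfml3, which encodes a secreted olfactomedin-domain protein, to ask how its loss alters the resting and LPS-treated macrophage. RAW264.7, a mouse macrophage leukemia line, gave 4 groups of 3 libraries: wild-type cells with PBS, cells labelled Olfml3 knockout with PBS, wild-type cells given LPS for 4 h at 100 ng/mL, and cells labelled Olfml3 knockout with the same LPS treatment. Bone marrow-derived macrophages (BMDMs) from wild-type C57BL/6 mice and from Olfml3-/- mice of the same background, made with CRISPR-Cas9, gave the same 4 groups of 3 libraries. The marrow came from male mice 8 weeks old and was grown in medium with L929 cell supernatant, a source of M-CSF, so that cells of all 4 BMDM groups had been exposed to M-CSF protein. The line of knockout RAW264.7 cells was made with lentiviral guides and sorted as single-cell clones, and the Olfml3 alleles of the clones were read by Sanger sequencing. Effects of the knockout and of the clone cannot be told apart. Total counts per library ran from 11638273 to 16478616 in RAW264.7 cells and from 17121240 to 22873094 in BMDMs.

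The targeted gene was read first as a check of the labels. In RAW264.7 cells Olfml3 stood at 0.19, 0.15 and 0.15 FPKM in the wild-type PBS libraries and at 0.65, 1.01 and 1.19 FPKM in those labelled knockout. With LPS it stood at 0.13, 0.13 and 0.29 FPKM in wild-type libraries and at 18.9, 18.8 and 18.3 FPKM in those labelled knockout. The libraries labelled knockout were the higher in both treatments, with no overlap, 5.82-fold with PBS and 102-fold with LPS by their means. The level of Olfml3 mRNA thus goes against the knockout label of this line. A guide may disrupt a protein without lowering its mRNA, and exchanged labels would reverse each genotype difference given for this line. Neither reading was tested. The paper describes its Olfml3-/- cells as single clones with knockout at both alleles. The expression tables hold no sequence of the alleles and cannot show whether they were cut. The libraries of this line are called the libraries labelled knockout throughout. In BMDMs the wild-type PBS libraries held 0.61, 0.53 and 0.65 FPKM and the knockout ones 0.03, 0.01 and 0.01 FPKM. With LPS the wild-type BMDM libraries held 0.24, 0.25 and 0.25 FPKM and the knockout ones 0.01, 0 and 0 FPKM. Olfml3 was lower in all 6 knockout BMDM libraries than in the 6 wild-type ones.

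Within the PBS libraries of RAW264.7 labelled knockout, replicate 1 stood apart from replicates 2 and 3. The summed FPKM over all genes was 356156 in replicate 1 against 296109 and 295256 in the others, and 357349 to 361580 in the wild-type PBS libraries. RAW264.7 calls that rest on this group were therefore repeated without replicate 1, and the values are given beside them. The genotype tag of 12 of the 24 samples contradicts the title, and groups were taken from the titles. By title these are the knockout PBS libraries, tagged wild type, and the wild-type LPS libraries, tagged Olfml3 knockout, of both cell types.

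The macrophage label was compared with marker genes. The summed level of 8 macrophage markers in the 3 wild-type PBS libraries of RAW264.7 was 3291, 3258 and 3227 FPKM, and in those labelled knockout it was 1257, 901 and 921 FPKM. With LPS the sum was 4063, 4028 and 4160 FPKM in wild-type libraries and 1359, 1354 and 1415 FPKM in those labelled knockout. Thus the libraries labelled knockout held less than the wild-type ones in both treatments. Lyz2, which encodes lysozyme, was the most abundant marker in 3 of these groups, and Cd68, a lysosomal protein of macrophages, in the libraries labelled knockout with PBS (454 FPKM). Mertk, an engulfment receptor, was at 0 counts in all RAW264.7 libraries, and the other 7 markers were at 1 FPKM or more in each group. A called gene below has a limma adjusted p under 0.05 over all genes and a fold change of at least 1.5. Of the 7 markers tested, 4 were called lower and 0 higher in the libraries labelled knockout with PBS, and 4 lower and 0 higher with LPS, with unadjusted p under 0.05 for 6 of 7 in each. Over all genes 8.55% were called with PBS and 17.3% with LPS. The PBS calls were again 4 lower and 0 higher without replicate 1 labelled knockout, where 20.8% of all genes were called. In BMDMs all 8 markers were at 1 FPKM or more, and their sum ranged from 12370 FPKM in wild-type libraries with LPS to 17494 FPKM in knockout libraries with PBS. Lyz2 was the most abundant marker in all 4 BMDM groups. Between the BMDM genotypes 1 of 8 was called lower and 0 higher in each treatment, Fcgr1, a receptor for IgG, at log2 fold changes of -1.15 with PBS and -0.64 with LPS. The unadjusted p was under 0.05 for 5 and 7 of the 8, 1.81% and 4.76% of all genes were called, and with edgeR or DESeq2 2 were lower with LPS. These are bulk libraries, in which fewer cells of a type and less RNA per cell cannot be told apart.

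Markers of other cell types were low. Summed over 8 neutrophil genes the group means were at most 0.39 FPKM in RAW264.7 cells and 5.45 to 6.43 FPKM in BMDMs, with single libraries at up to 0.81 and 8.2 FPKM. In BMDMs S100a8 was the most abundant of them. Ly6g, a surface marker of neutrophils, was at 0 counts in all 24 libraries. Of 6 markers of monocytes and dendritic cells, Siglech reached 9.21 FPKM in the PBS libraries of RAW264.7 labelled knockout, against 1.12 FPKM in wild-type ones. The sum of these 6 was 1.51, 9.77, 1.12 and 2.42 FPKM in the RAW264.7 groups of wild-type PBS, labelled knockout PBS, wild-type LPS and labelled knockout LPS, and 3.75, 2.76, 0.593 and 0.467 FPKM in the same order in BMDMs. Ccr2 was the most abundant of them in BMDMs with PBS. The group means of the sums of 5 B-cell, 6 fibroblast and 6 mast cell, basophil and eosinophil markers were at most 0.357, 0.127 and 0.0667 FPKM in RAW264.7 cells and 1.41, 1.33 and 1.43 FPKM in BMDMs. Single libraries reached 0.52, 0.37 and 0.1 FPKM in RAW264.7 cells and 1.73, 1.44 and 1.53 FPKM in BMDMs. The 8 markers of T and NK cells had group means of at most 0.257 and 0.127 FPKM, with Cd3d, Cd3e and Cd3g at 0 counts in BMDMs. The part of these marker differences in the results was not tested.

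Csf2 lies at chr11:54247271-54249667 on the minus strand and Csf3 at chr11:98701263-98703629 on the plus strand of mouse build GRCm38 (GENCODE M21). The deposited tables give the same start and end as GENCODE M21 for 2.83% of 52073 genes, and all positions here are those of the annotation, not of the tables. Csf1 lies at chr3:107741048-107760469 on the minus strand. In the part of each mRNA after the stop codon, the pentamer ATTTA, the core of AU-rich decay elements, was found 9 times in 317 bases of Csf2, 6 times in 669 bases of Csf3 and 4 times in 2111 bases of Csf1. Among 21037 genes, 8.4% held at least as many as Csf2, 16.6% as many as Csf3 and 27.6% as many as Csf1. The receptor genes Csf2ra, Csf2rb and Csf3r held 0. The densest 30-base stretch of each ligand is shown, 5′ to 3′ on the mRNA strand with ATTTA in capitals, because these are the mRNAs that LPS raised.
Csf2, chr11:54247329-54247358, minus strand: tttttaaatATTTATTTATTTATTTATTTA
Csf3, chr11:98702984-98703013, plus strand: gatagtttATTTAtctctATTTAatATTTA
Csf1, chr3:107741109-107741138, minus strand: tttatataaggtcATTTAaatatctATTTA
Upstream of Csf1 the RefSeq window of 250 bases before the start (GRCm38.p6, chr3:107760470-107760719, minus strand) held 1 match to the kappaB motif of NF-kappaB, given in capitals, which starts at -154 from the start and is on the opposite strand.
Csf1 upstream: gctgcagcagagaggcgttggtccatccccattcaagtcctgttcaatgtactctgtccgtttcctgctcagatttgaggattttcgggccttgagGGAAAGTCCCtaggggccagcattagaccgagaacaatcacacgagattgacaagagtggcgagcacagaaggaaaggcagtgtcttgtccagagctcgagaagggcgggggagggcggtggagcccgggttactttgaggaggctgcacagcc
RefSeq windows of 300 bases, 250 before and 50 after the start, were present for 4 of the 7 members, Csf1, Csf2, Csf2ra and Csf3r. Each motif was searched on both strands of these and of 32851 windows in all. The kappaB motif was in 8.46% of all windows, and among these 4 members in those of Csf1 and Csf3r. The C/EBP letters TTNCNNAA were in 40.7% of all windows and in those of Csf2 and Csf2ra. The PU.1 letters GAGGAAG were in 13.6% of all windows and in those of Csf2ra and Csf3r, with an overlapping pair in Csf2ra. The CK-1 letters AGATTCCNC, the AP-1 letters TGANTCA and the TATA letters TATAAA were in 0.791%, 7.81% and 13.6% of all windows and in none of these 4 windows. The window of Csf2 lies wholly upstream of the GENCODE start of the gene. A match is a description of letters, and no binding was measured.

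In RAW264.7 cells LPS took Csf2 and Csf3 from near 0 to high levels in wild-type cells and to much lower levels in the libraries labelled knockout. Csf3 stood at 0.05, 0.04 and 0 FPKM in wild-type PBS libraries and at 0.09, 0.13 and 0 FPKM in those labelled knockout. With LPS it reached 280, 270 and 294 FPKM in wild-type libraries (mean 281 ± 11.9, SD, n = 3) and 11.1, 8.75 and 9.71 FPKM in those labelled knockout (9.84 ± 1.17). The PBS groups overlapped each other, the LPS groups stood above them, and every wild-type LPS library was above every LPS library labelled knockout. By mean level Csf3 ranked 189 of 21009 genes above 0 in wild-type cells with LPS. Csf3 was 28.6-fold lower in the LPS libraries labelled knockout than in wild-type ones, on 513 against 16680 counts. The log2 fold change was -4.83 (SE 0.279) with a limma adjusted p of 5.44e-06.

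Csf2 followed the same order. It stood at 0.19, 0 and 0 FPKM in wild-type PBS libraries and at 0, 0.08 and 0 FPKM in those labelled knockout, on 2 and 1 counts in all. With LPS the wild-type libraries held 55.9, 54.8 and 53.8 FPKM (54.8 ± 1.02) and those labelled knockout 1.29, 0.85 and 0.82 FPKM (0.987 ± 0.263). The PBS groups overlapped, and the LPS libraries labelled knockout lay above them and below all wild-type LPS libraries. Csf2 was 55.6-fold lower in the LPS libraries labelled knockout, on 29 against 1838 counts. The log2 fold change was -5.69 (SE 0.405) with a limma adjusted p of 1.85e-05. A gene of unknown function, Gm12223, overlaps Csf2 on the opposite strand. The strand of counting is not stated, so reads of the pair cannot be told apart, and Gm12223 held 0.89, 0.39 and 0.13 FPKM in the wild-type LPS libraries and 0 in all other RAW264.7 libraries.

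Csf1 moved the other way between the genotypes. It stood at 0.04, 0.11 and 0.03 FPKM in wild-type PBS libraries and at 0.06, 0.12 and 0.07 FPKM in those labelled knockout. With LPS it reached 6.86, 7.09 and 6.77 FPKM in wild-type libraries (6.91 ± 0.165) and 12.1, 11.7 and 11.1 FPKM in those labelled knockout (11.6 ± 0.522). The PBS groups overlapped, and the LPS libraries labelled knockout were above the wild-type ones, 1.68-fold by their means. The log2 fold change was 0.74 (SE 0.179) with a limma adjusted p of 0.0159, over a range of 2.84e-10 to 0.206 among the alternatives. The call was lost at about the same fold change without wild-type LPS replicate 3 (0.73, adjusted p 0.0502), without LPS replicate 1 labelled knockout (0.71, 0.0513) and with an added 0.01 FPKM (0.75, 0.206), all by limma.

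**Figure D1:**
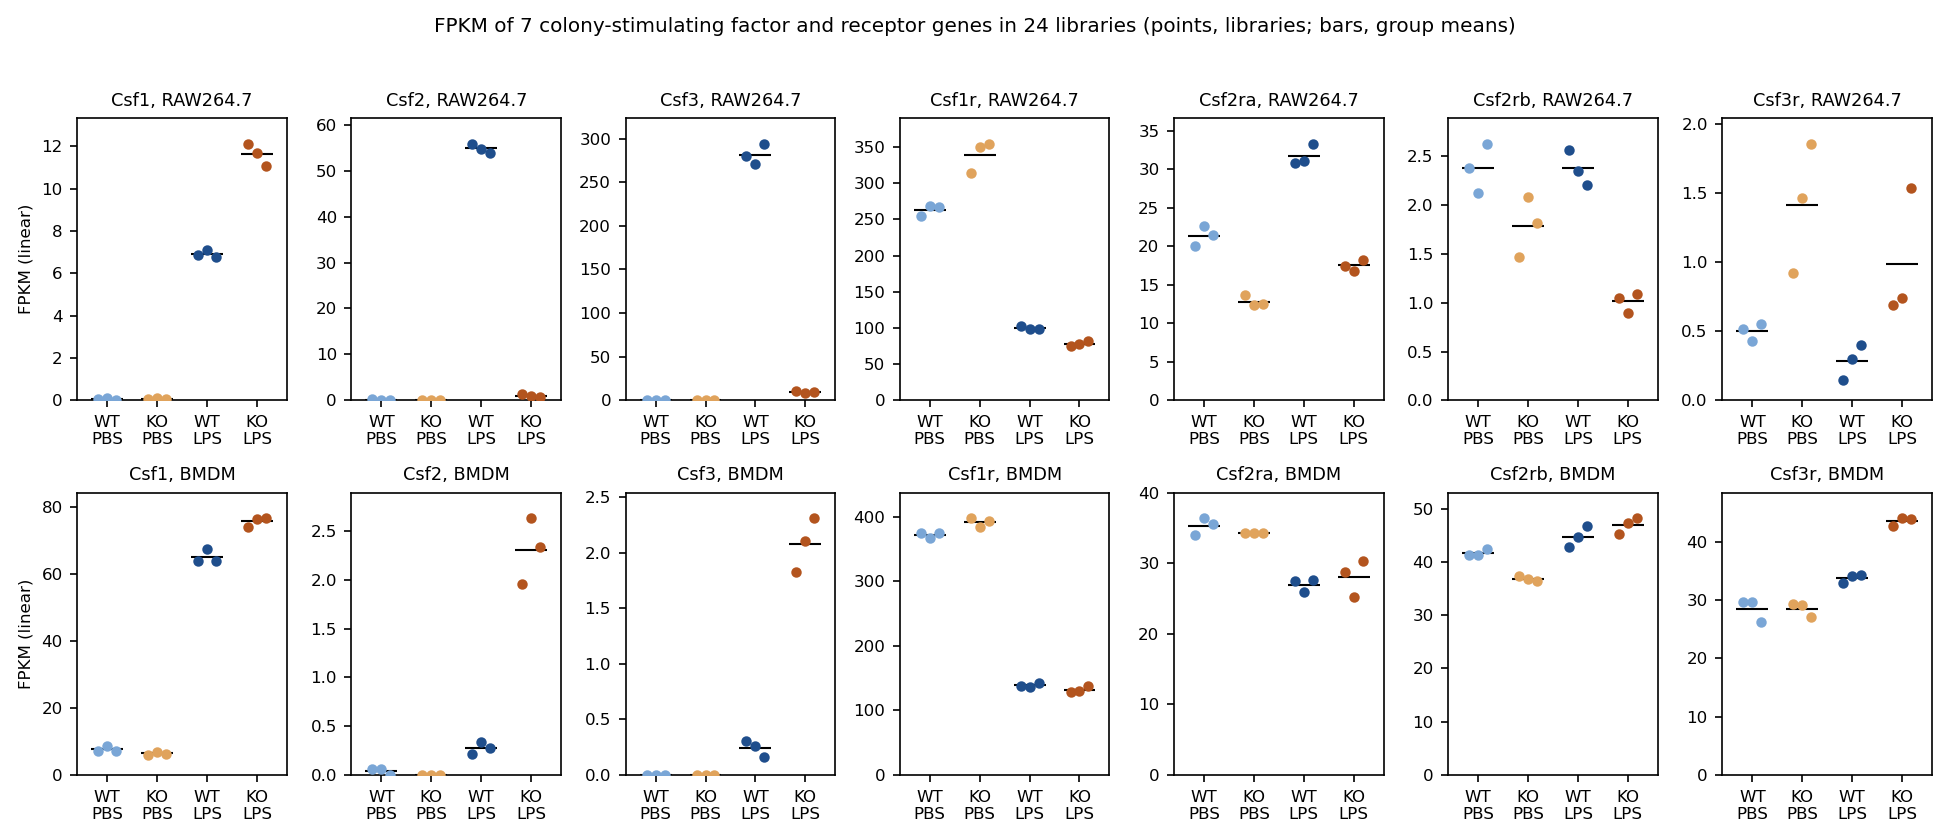
FPKM of each member on a linear axis from 0 in each of the 24 libraries, with points for libraries, bars for group means, WT for wild type and KO for the libraries labelled knockout. Csf2 and Csf3 with LPS are lower in the RAW264.7 libraries labelled knockout than in wild-type ones, and higher in knockout BMDMs than in wild-type ones.

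Measured against PBS, all 3 ligands rose with LPS in both RAW264.7 genotypes. The fitted values understate the change of genes near 0, because 0.1 FPKM is added before the log. In wild-type cells the log2 fold changes were 11.10 (SE 0.279) for Csf3, 8.59 (SE 0.405) for Csf2 and 5.49 (SE 0.179) for Csf1. The limma adjusted p was 4.43e-09, 2.58e-07 and 2.27e-08 in that order. The ratio of counts over library totals was 8479 for Csf3, with an exact 95% interval of 2347 to 70024, and 934 for Csf2, with an interval of 258 to 7721, each against 2 counts in the PBS group. Such intervals, and the floors used below, cover counting error only. In the libraries labelled knockout the log2 fold changes were 5.92 for Csf3, 3.13 for Csf2 and 6.01 for Csf1, with limma adjusted p of 1.83e-07, 0.00022 and 1.12e-08. The ratio for Csf2 was 36.6, with an interval of 6.07 to 1496, against 1 count. Without PBS replicate 1 labelled knockout the 3 values were 6.03, 2.99 and 5.92.

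The difference between these LPS responses was tested as an interaction of genotype and LPS. It was -5.18 (SE 0.395) on the log2 scale for Csf3 and -5.46 (SE 0.573) for Csf2, with limma adjusted p of 2e-04 and 0.00135. Both genes were near 0 with PBS, so these values largely restate the LPS difference between the genotypes. Without PBS replicate 1 labelled knockout the values were -5.07 and -5.60. With an added 0.01 FPKM both calls were lost while the values stayed large, at -5.58 for Csf3 (limma adjusted p 0.124) and -5.43 for Csf2 (0.279). The edgeR test also lost Csf2, at -4.92 (adjusted p 0.342) with its filter on low counts and -4.93 (0.519) without. Among the alternatives the values ran from -6.00 to -4.77 for Csf3 and from -5.97 to -4.75 for Csf2. Over all alternatives the adjusted p of limma, edgeR and DESeq2 ran from 4.52e-08 to 0.124 for Csf3 and from 1.22e-07 to 0.519 for Csf2. The interaction of Csf1 was 0.53 with a limma adjusted p of 0.529, or 0.44 without PBS replicate 1, and it was called with an added 1 FPKM (0.64, limma adjusted p 0.000258), over a range of 0.000258 to 1.

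In BMDMs the genotypes differed in the opposite direction, with Csf2 and Csf3 far lower in wild-type BMDMs with LPS than in wild-type RAW264.7 cells with LPS. Csf3 was at 0 counts in all 6 PBS libraries. With LPS it stood at 0.31, 0.26 and 0.16 FPKM in wild-type libraries and at 1.83, 2.11 and 2.31 FPKM in knockout ones. Each knockout LPS library was above each wild-type one, and both groups were above PBS. Csf3 was 8.56-fold higher in knockout than in wild-type BMDMs with LPS, on 180 against 23 counts. The log2 fold change was 2.69 (SE 0.146) with a limma adjusted p of 1.08e-05.

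Csf2 in BMDMs was at 0.06, 0.06 and 0 FPKM in wild-type PBS libraries and at 0 in the 3 knockout ones. With LPS it stood at 0.22, 0.34 and 0.28 FPKM in wild-type libraries and at 1.96, 2.63 and 2.34 FPKM in knockout ones (2.31 ± 0.336). The PBS groups overlapped and lay below both LPS groups, which did not overlap each other. Csf2 was 8.25-fold higher in knockout than in wild-type BMDMs with LPS, on 114 against 15 counts. The log2 fold change was 2.67 (SE 0.192) with a limma adjusted p of 3.3e-05. Between the genotypes with PBS it was -0.45 (SE 0.192) with a limma adjusted p of 0.309, and it was called without wild-type PBS replicate 3, at -0.68 and an adjusted p of 0.0449, over a range of 0.0449 to 0.769 among the alternatives. The overlapping Gm12223 held 0.08, 0.09 and 0 FPKM in wild-type LPS libraries and 0, 0.25 and 0.11 FPKM in knockout ones.

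Csf1 was the abundant ligand of BMDMs. It stood at 7.16, 8.69 and 7.05 FPKM in wild-type PBS libraries and at 6.07, 6.9 and 6.37 FPKM in knockout ones. With LPS it reached 63.8, 67.3 and 63.8 FPKM in wild-type libraries and 74, 76.3 and 76.5 FPKM in knockout ones. The 4 groups did not overlap, in the order knockout PBS, wild-type PBS, wild-type LPS and knockout LPS. Neither genotype difference passed the limma test over all genes, with log2 fold changes of -0.24 (adjusted p 0.196) with PBS and 0.22 (adjusted p 0.109) with LPS.

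With LPS all 3 ligands rose in both BMDM genotypes. Csf1 rose 8.51-fold in wild-type and 11.7-fold in knockout cells, at log2 fold changes of 3.08 (SE 0.0825) and 3.53 (SE 0.0825). With the median ratio, edgeR or DESeq2 these were 3.80 to 3.89 and 4.16 to 4.24. Csf3 was at least 7.58-fold higher with LPS in wild-type and at least 60.3-fold higher in knockout BMDMs, taken against a floor of 3 counts over the PBS group. The exact 95% lower limits, which include the error of the LPS counts, were 5.68 and 48.6. Csf2 was 7.42-fold higher in wild-type BMDMs, with an interval of 1.72 to 66.8 against 2 counts, and at least 38.2-fold higher in knockout ones by the floor, with an exact lower limit of 30.6. The fitted values in wild type, 1.46 for Csf2 and 1.75 for Csf3, were 0.30 and 0.31 with an added 1 FPKM, and not called. The interaction of Csf3, 2.69 (SE 0.207) with a limma adjusted p of 0.000127, is its genotype difference with LPS restated, because all 6 PBS libraries were at 0. That of Csf2, 3.12 (SE 0.272) with a limma adjusted p of 0.00024, has a baseline set by the added 0.1 FPKM in knockout cells, whose PBS libraries were at 0. Neither is a measured difference of fold changes by LPS, and the calls depend on the tool. For Csf3 the value was 2.93 to 2.94 with edgeR (adjusted p 1) and 2.88 with DESeq2 (0.283), as large as with limma but not called, over a range of adjusted p of 1.51e-05 to 1 among the alternatives. For Csf2 the call was kept by edgeR with its filter. Without a filter edgeR gave 5.28 with an adjusted p of 0.0712, over a range of 2.02e-05 to 0.0712, and DESeq2 gave no adjusted p. The interaction of Csf1 was 0.46 with a limma adjusted p of 0.0509. Among the alternatives it ran from 0.34 to 0.51, under the fold of 1.5, with adjusted p of limma, edgeR and DESeq2 from 1.04e-06 to 0.154.

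The make-up of the summed ligand mRNA after LPS differed between the cell types and genotypes. In wild-type RAW264.7 libraries Csf3 made up 81.4% to 82.9% of the summed FPKM of the 3 ligands, Csf2 15.2% to 16.5% and Csf1 1.91% to 2.13%, of a sum of 332 to 355 FPKM. In the RAW264.7 libraries labelled knockout Csf1 made up 49.5% to 54.9%, Csf3 41.1% to 45.2% and Csf2 3.79% to 5.27%, of a sum of 21.3 to 24.5 FPKM. In wild-type BMDMs Csf1 made up 99.1% to 99.3%, and Csf2 and Csf3 at most 0.501% and 0.482%. In knockout BMDMs Csf1 made up 94.1% to 95.1%, Csf2 2.52% to 3.25% and Csf3 2.35% to 2.85%. Csf3 was thus the main ligand mRNA of wild-type RAW264.7 cells with LPS, and Csf1 that of both BMDM groups.

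**Figure D2:**
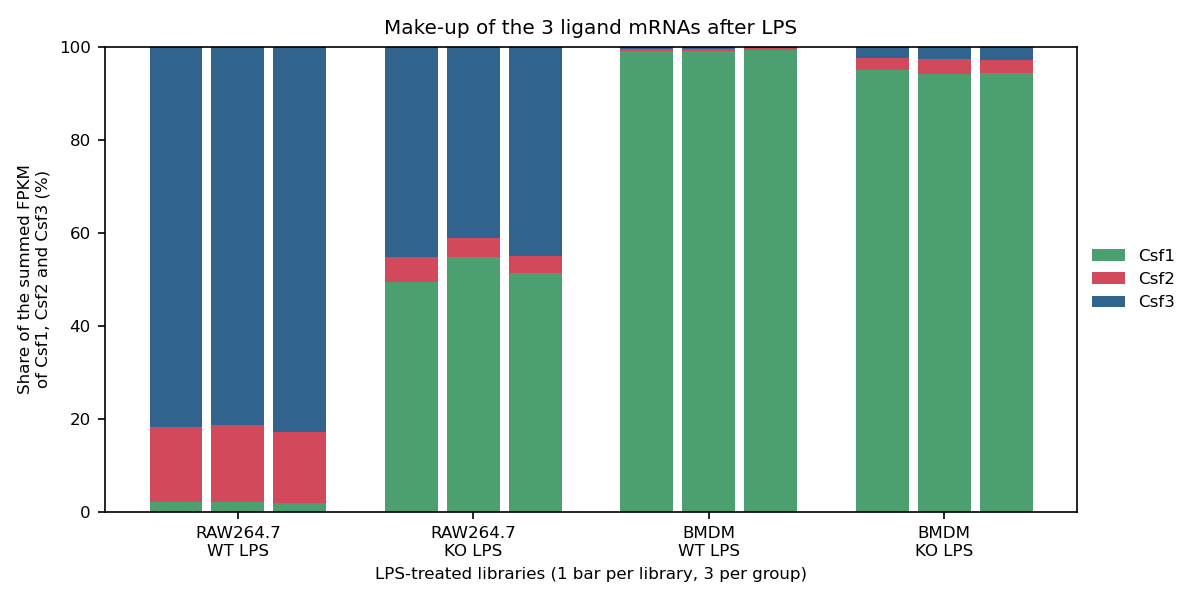
Share of Csf1, Csf2 and Csf3 in their summed FPKM, in percent, in each LPS library, with 3 libraries per group. Csf3 takes 81.4% to 82.9% in wild-type RAW264.7 libraries, and Csf1 takes at least 94.1% in each BMDM library.

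Csf1r, the M-CSF receptor, was the most abundant member in cells with PBS. In RAW264.7 cells it stood at 254, 268 and 267 FPKM in wild-type PBS libraries and at 314, 350 and 354 FPKM in those labelled knockout. With LPS it stood at 103, 99.1 and 98.8 FPKM in wild-type libraries and at 75.4, 77.6 and 82.5 FPKM in those labelled knockout. No 2 groups overlapped, so that the libraries labelled knockout were the higher with PBS and the lower with LPS. By mean level Csf1r ranked 183 of 21447 genes above 0 in wild-type cells with PBS and 564 of 21009 with LPS. It fell with LPS in both genotypes, 2.63-fold in wild-type cells and 4.33-fold in the libraries labelled knockout. The log2 fold changes were -1.39 (SE 0.0758) and -2.11 (SE 0.0758), with limma adjusted p of 6.85e-07 and 2.99e-08, and the second was -2.17 without PBS replicate 1. The genotype differences, 0.37 with PBS and -0.35 with LPS, had limma adjusted p of 0.015 and 0.00967 but were under the fold of 1.5. The first was 0.42 without PBS replicate 1, and its adjusted p reached 0.151 with these groups fitted alone by limma. On the TPM scale they were 0.56 and -0.12, the second with a limma adjusted p of 0.552. Their difference, the interaction, was -0.72 (SE 0.107) with a limma adjusted p of 0.00875, and -0.77 without PBS replicate 1. On the TPM scale, in which levels are rescaled to an equal sum in each library, that call was lost, at -0.68 with a limma adjusted p of 0.148, over a range of 4.22e-11 to 0.148.

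In BMDMs Csf1r stood at 374, 367 and 374 FPKM in wild-type PBS libraries and at 397, 383 and 394 FPKM in knockout ones. Its LPS levels were 138, 136 and 143 FPKM in wild-type libraries and 128, 130 and 138 FPKM in knockout ones. The LPS groups overlapped and lay below both PBS groups, which did not overlap each other. Csf1r ranked 76 of 22893 genes above 0 in wild-type BMDMs with PBS. It fell with LPS 2.68-fold in wild-type and 2.96-fold in knockout BMDMs, at log2 fold changes of -1.42 and -1.57 with limma adjusted p of 2.36e-09 and 1.39e-09. The fall was smaller with the median ratio, edgeR or DESeq2, at -0.71 to -0.62 and -0.96 to -0.87, and still called. Neither genotype difference nor the interaction was called by limma, at 0.07, -0.07 and -0.15 with adjusted p of 0.559, 0.373 and 0.261. Csf1r lies at chr18:61100598-61132149 on the plus strand, and Hmgxb3, which overlaps it on the opposite strand, held at most 8.73 FPKM in RAW264.7 cells and 2.79 FPKM in BMDMs.

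Csf2ra, the chain that recognises GM-CSF, was lower in the RAW264.7 libraries labelled knockout in both treatments. It stood at 20, 22.6 and 21.4 FPKM in wild-type PBS libraries and at 13.6, 12.4 and 12.4 FPKM in those labelled knockout. After LPS it was at 30.8, 31 and 33.3 FPKM in wild-type libraries and at 17.5, 16.8 and 18.3 FPKM in those labelled knockout. The 4 groups did not overlap, and both groups labelled knockout lay below both wild-type ones. Csf2ra was 1.67-fold lower with PBS and 1.81-fold lower with LPS, at log2 fold changes of -0.73 (SE 0.0799) and -0.85 (SE 0.0799) with limma adjusted p of 0.00037 and 9.98e-05. Without PBS replicate 1 the first was -0.78, and on the TPM scale it was -0.54 and not called. LPS against PBS gave 0.57 in wild-type cells and 0.45 in the libraries labelled knockout (0.49 without PBS replicate 1), under the fold of 1.5. With size factors by the median ratio, edgeR or DESeq2 these rose to 0.79 to 0.81 and 0.67 to 0.72 and were called. The wild-type value was also called without wild-type PBS replicate 2 (0.61) and without wild-type LPS replicate 1 (0.59).

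In BMDMs Csf2ra varied little. It ranged from 34 to 36.4 FPKM in wild-type PBS libraries, was 34.3 FPKM in each knockout PBS library, and ranged from 25.9 to 27.6 and from 25.2 to 30.4 FPKM in wild-type and knockout LPS libraries. The genotypes overlapped within each treatment, and the LPS libraries lay below the PBS ones. The direction of its LPS difference depends on the scaling, -0.39 in wild-type and -0.29 in knockout cells on the main scale against 0.41 and 0.40 with size factors by the median ratio, and it was called with neither. The median log2 fold change of 11579 expressed genes on the main scale was -0.76 in wild-type and -0.65 in knockout BMDMs for LPS against PBS, and it was 0.02 and 0.02 with the median ratio. In RAW264.7 cells it was -0.20 and -0.22 over 12518 genes, against 0.03 and 0.04. For the genotypes it moved by over 0.1 in BMDMs with LPS, at 0.14 on the main scale, in the BMDM interaction, at 0.11, and on the TPM scale in RAW264.7 cells, at 0.22 with PBS and 0.23 with LPS.

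Csf2rb, the beta chain that carries the GM-CSF signal, was scarce in RAW264.7 cells. It stood at 2.38, 2.13 and 2.63 FPKM in wild-type PBS libraries and at 1.47, 2.08 and 1.82 FPKM in those labelled knockout. With LPS its levels were 2.57, 2.35 and 2.21 FPKM in wild-type libraries and 1.05, 0.9 and 1.09 FPKM in those labelled knockout. The wild-type groups overlapped each other, and the LPS libraries labelled knockout were the lowest. With PBS each library labelled knockout was below each wild-type one as well, at a log2 fold change of -0.40 (SE 0.136). This was under the fold of 1.5, with a limma adjusted p of 0.083, over a range of 0.0184 to 0.462 among the alternatives by limma, edgeR and DESeq2. With LPS it was 2.35-fold lower in the libraries labelled knockout, at a log2 fold change of -1.16 (SE 0.136) with a limma adjusted p of 0.000417. It fell with LPS in the libraries labelled knockout, at -0.75 (SE 0.136) and -0.88 without PBS replicate 1, but not past the fold of 1.5 with the median ratio (-0.51), DESeq2 (-0.56) or an added 1 FPKM (-0.47). The interaction was -0.75 with a limma adjusted p of 0.105, over a range of 0.0169 to 0.365. It was called without PBS replicate 1 (-0.88, limma adjusted p 0.0169), with a filter on low genes (-0.75, limma, 0.0477), with edgeR (-0.81 and -0.82, 0.0435 and 0.0247) and with DESeq2 (-0.80, 0.0188).

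In BMDMs Csf2rb was far more abundant, from 36.4 to 42.3 FPKM in the 6 PBS libraries and from 42.8 to 48.1 FPKM in the 6 LPS libraries. The knockout PBS libraries were the lowest, and the LPS groups of both genotypes overlapped. No limma comparison on the main scale called it. The log2 fold changes were -0.17 and 0.07 between genotypes with PBS and LPS and 0.10 and 0.35 for LPS in wild-type and knockout cells. With the median ratio, edgeR or DESeq2 the LPS values were 0.82 to 0.91 in wild-type and 0.96 to 1.04 in knockout cells, and called. Csf2rb2, a related gene that encodes the IL-3-specific beta chain of the mouse, lies 20031 bases from Csf2rb, and 6.96% of the 100-base stretches of the longest coding transcript of Csf2rb occur in Csf2rb2 as well. A read pair that lies wholly in shared sequence cannot be assigned to either gene, and how many do was not measured. Csf2rb2 averaged 92.5, 72.5, 70.5 and 60 FPKM in BMDMs with wild-type PBS, knockout PBS, wild-type LPS and knockout LPS. The sum of both genes changed by -0.22 and -0.03 with LPS in wild-type and knockout BMDMs.

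In RAW264.7 cells Csf2rb2 was lower in the libraries labelled knockout, 3.51-fold with PBS and 4.03-fold with LPS, at log2 fold changes of -1.36 (SE 0.343) and -1.41 (SE 0.343) with limma adjusted p of 0.0342 and 0.0162. The first was -1.35 without PBS replicate 1, and called. It averaged 0.503 and 0.403 FPKM in wild-type libraries with PBS and LPS and 0.143 and 0.1 FPKM in those labelled knockout.

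Csf3r, the G-CSF receptor, was low in RAW264.7 cells and abundant in BMDMs. It stood at 0.52, 0.43 and 0.55 FPKM in wild-type PBS libraries of RAW264.7 and at 0.92, 1.47 and 1.86 FPKM in those labelled knockout. Under LPS it was at 0.15, 0.3 and 0.4 FPKM in wild-type libraries and at 0.69, 0.74 and 1.54 FPKM in those labelled knockout. The libraries labelled knockout were above the wild-type ones in each treatment, while the groups labelled knockout overlapped each other and the wild-type LPS libraries were the lowest. Csf3r was 2.83-fold higher with PBS and 3.49-fold higher with LPS, on 236 against 76 and 132 against 44 counts. The log2 fold changes were 1.29 (SE 0.353) and 1.48 (SE 0.353), with limma adjusted p of 0.0443 and 0.015.

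Both Csf3r calls were lost when certain single libraries were left out, at log2 fold changes of 1.08 to 1.35 with PBS and 1.20 with LPS. The PBS value was 1.55 without replicate 1 labelled knockout, with a limma adjusted p of 0.0112. The call was lost without wild-type replicate 1 (0.109), 2 (0.124) or 3 (0.0957) and without replicate 2 (0.136) or 3 (0.16) labelled knockout, all limma adjusted p. It was lost as well with an added 0.01 FPKM (1.43, adjusted p 0.0725), with the median ratio (1.24, 0.0524) and with these 2 groups alone (1.29, 0.0671), over a range of 9.97e-05 to 0.16 for limma, edgeR and DESeq2. The LPS call was lost without wild-type LPS replicate 1, at 1.20 with a limma adjusted p of 0.0517, over a range of 2.63e-05 to 0.0517.

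In BMDMs Csf3r stood at 29.7, 29.7 and 26.2 FPKM in wild-type PBS libraries and at 29.3, 29.2 and 27 FPKM in knockout ones. Its LPS levels were 33, 34.1 and 34.2 FPKM in wild-type libraries and 42.7, 44 and 43.9 FPKM in knockout ones. The PBS groups overlapped, the wild-type LPS libraries lay above them, and the knockout LPS libraries were the highest. Csf3r rose with LPS in knockout BMDMs, 1.53-fold, at a log2 fold change of 0.61 (SE 0.06) with a limma adjusted p of 1.04e-05. That is close to the fold of 1.5, and on the TPM scale (0.58) or without knockout PBS replicate 3 (0.57) it was not called. With the median ratio, edgeR or DESeq2 it was 1.22 to 1.30 and called. In wild-type cells the LPS value was 0.25, and 0.96 to 1.05 and called with the median ratio, edgeR or DESeq2. Between the genotypes with LPS it was 0.36 with a limma adjusted p of 0.00253, under the fold of 1.5, and the interaction was 0.36 with a limma adjusted p of 0.0344.

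**Figure D3:**
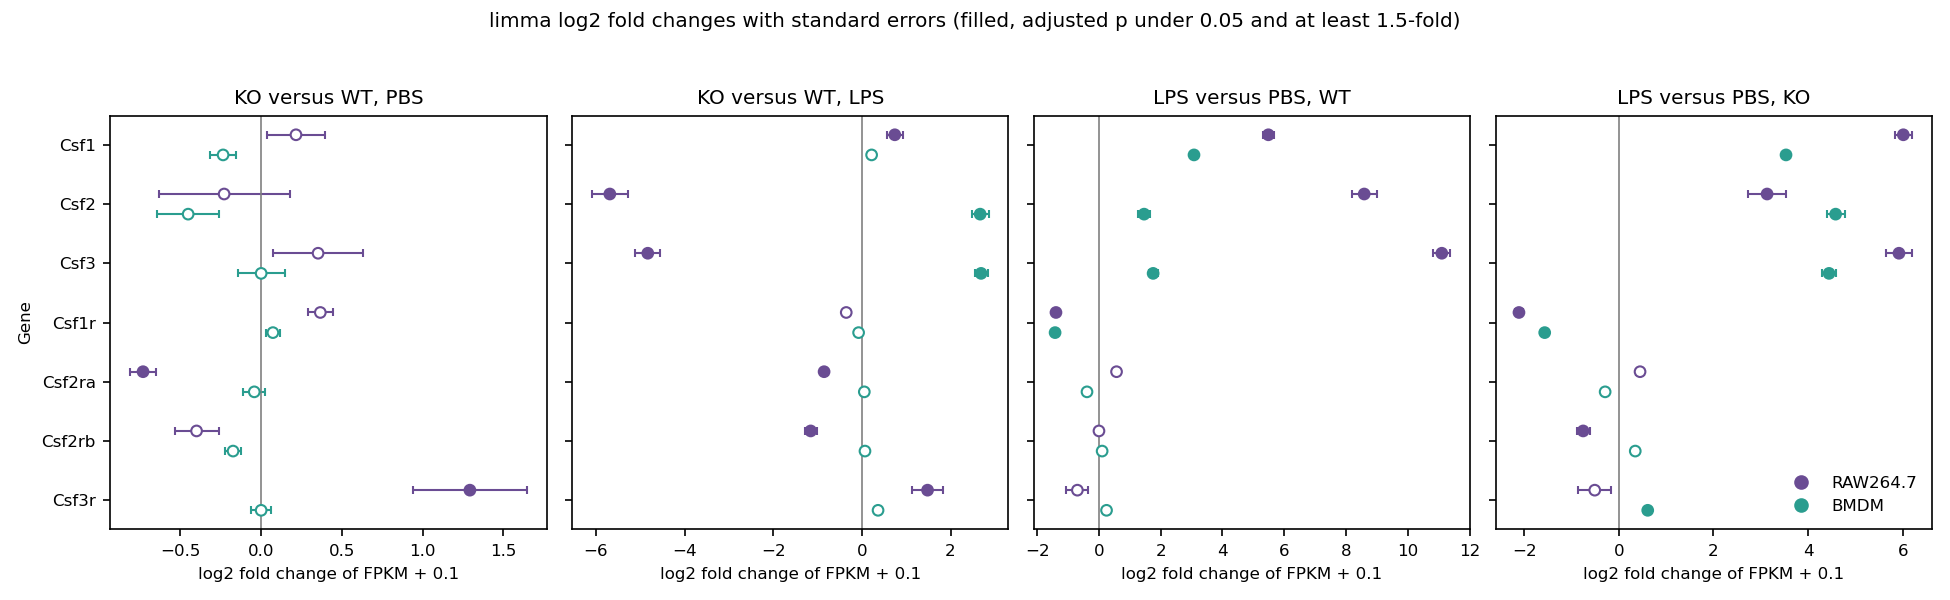
Log2 fold change of each member in 4 comparisons of knockout (KO) with wild type (WT) and of LPS with PBS, fitted with limma on log2(FPKM + 0.1), with bars for the standard error, 3 libraries per group and filled points for called genes. The genotype differences of Csf2 and Csf3 with LPS are -5.69 and -4.83 in RAW264.7 cells and 2.67 and 2.69 in BMDMs.

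Counted over the 7 members, limma called more of them between the RAW264.7 genotypes with LPS than with PBS. The difference between these counts was not tested. With PBS Csf1 had 14 counts in wild-type libraries and 20 in those labelled knockout. Csf2 had 2 and 1 and Csf3 had 2 and 5, in the same order. Levels this low left the ligands little room to be called with PBS, so detection limits the PBS number. With PBS limma called 2 of 7, Csf3r higher and Csf2ra lower, against 8.55% of all 26740 genes tested, and the same number without replicate 1 labelled knockout, where it called 20.8% of all genes. With LPS it called 6 of 7, 2 higher (Csf1 and Csf3r) and 4 lower (Csf2, Csf3, Csf2ra and Csf2rb), against 17.3% of all genes. The members' median log2 fold change was 0.22 with PBS and -0.85 with LPS, against 0.02 and 0.00 over all genes. LPS changed 4 of 7 in wild-type cells, the 3 ligands higher and Csf1r lower, against 18.3% of all genes, and 5 of 7 in the libraries labelled knockout, with Csf2rb lower as well, against 22.1%, and the same 5 without replicate 1, against 21.8%. With DESeq2 or the median ratio the second split was 4 higher and 1 lower, with Csf2ra gained and Csf2rb lost. In wild-type cells Csf2ra was gained with the median ratio (0.81), edgeR (0.79) and DESeq2 (0.81). The medians were 0.57 and 0.45, against -0.05 and -0.07 over all genes. The interaction was called for 3 of 7, all lower, against 1.95% of all genes, and for 4 of 7 without replicate 1, with Csf2rb gained, where it was called for 3.41% of all genes. Its median was -0.72, against -0.01 over all genes. In these 5 comparisons edgeR with its filter, as used for the lists below, called 22.8%, 33%, 31.2%, 37.9% and 3.23% of all genes. DESeq2 called 12.1%, 17.3%, 16.2%, 19.8% and 2.01%.

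In BMDMs with PBS limma called 0 of 7 members between the genotypes, against 1.81% of 26973 genes tested, with 3 of 7 at an unadjusted p under 0.05 and 0 called by edgeR or DESeq2. With LPS it called 2 of 7, Csf2 and Csf3, both higher, against 4.76% of all genes. LPS changed 4 of 7 in wild-type BMDMs, the 3 ligands higher and Csf1r lower, against 40.4% of all genes, and 5 of 7 in knockout BMDMs, with Csf3r higher as well, against 38.9%. It changed 6 of 7 in each with edgeR, against 56% and 53.5% of all genes with its filter and 32.8% and 31.1% without. DESeq2 also called 6 of 7 in each, against 30.6% and 29%. The interaction was called for 2 of 7, Csf2 and Csf3 with their PBS levels at or near 0, against 2.91% of all genes. Between genotypes with PBS and LPS and for the interaction edgeR with its filter called 3.77%, 9.1% and 5.68% of all genes, and DESeq2 1.71%, 4.34% and 2.64%. The members' medians in these 5 comparisons were -0.04, 0.22, 0.25, 0.61 and 0.36, against 0.01, 0.04, -0.30, -0.28 and 0.05 over all genes. The comparisons within a cell type share libraries, so their counts are not independent.

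The genes of related ligands and receptor chains were nearly silent, apart from Csf2rb2 in BMDMs. Of 6 listed, Il3, the cytokine that shares the beta chain, was at 0 in both cell types, and Il5 and Il3ra were at 0 in RAW264.7 cells. Of the 3 tested in RAW264.7 cells, Csf2rb2 was the 1 called between genotypes, in both treatments (on the TPM scale with LPS alone), against 8.55% and 17.3% of all genes, and 0 were called by limma for LPS or the interaction, with 0 at an unadjusted p under 0.05 and 0 by edgeR and DESeq2. Of 5 tested in BMDMs, limma called 0 between genotypes with PBS and with LPS and 0 for the interaction, with 2, 4 and 2 at an unadjusted p under 0.05 and 0 by edgeR and DESeq2, although 1 was lower with LPS on the TPM scale. Il34, which encodes the other ligand of Csf1r, rose with LPS in wild-type (1.38) and knockout (2.32) BMDMs, to a mean of 0.183 and 0.4 FPKM, where 40.4% and 38.9% of all genes were called. The list's medians were -0.29, -0.32, 0.04, 0.00 and -0.06 in the RAW264.7 comparisons of genotype with PBS, genotype with LPS, LPS in wild type, LPS in the libraries labelled knockout, and interaction. In BMDMs they were -0.23, -0.23, -0.19, 0.00 and 0.12 in the same order.

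Of 18 signal transducers, 2 were called higher and 0 lower in the PBS libraries of RAW264.7 labelled knockout, against 8.55% of all genes, and 6 higher and 1 lower with LPS, against 17.3%. The PBS split was 5 higher and 1 lower without replicate 1 labelled knockout, against 20.8% of all genes. Stat5a, a transcription factor activated by the GM-CSF receptor, was higher with LPS, at 34.3 against 13.6 FPKM and a log2 fold change of 1.33. Mapk3, which encodes the kinase ERK1, was lower at 15.9 against 31.5 FPKM (-0.98), and Pik3r1, a regulatory subunit of PI3-kinase, was higher in both treatments, by 0.88 with PBS (1.13 without replicate 1) and 0.94 with LPS. LPS raised 6 and lowered 4 of the 18 in both RAW264.7 genotypes, against 18.3% and 22.1% of all genes, or lowered 1 in wild-type cells with DESeq2 and 2 with edgeR. In the libraries labelled knockout it lowered 3 with edgeR or DESeq2 and 5 without PBS replicate 1, against 21.8% of all genes in the last. Jak2, the kinase bound to the beta chain, rose by 2.16 in wild-type cells and 2.31 in the libraries labelled knockout (2.14 without PBS replicate 1). The interaction called 1 higher, Stat5a at 0.86 (limma adjusted p 0.00131), and 1 lower, Pik3cd, a catalytic subunit of PI3-kinase, at -0.74, which was lost on the TPM scale, against 1.95% of all genes. These values were 0.84 and -0.82 without PBS replicate 1. The medians in the same 5 comparisons were 0.23, 0.22, -0.22, -0.14 and -0.01.

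In BMDMs limma called 0 of the 18 transducers between genotypes with PBS, against 1.81% of all genes, with 4 at an unadjusted p under 0.05 and 0 by edgeR and DESeq2. With LPS it called 1, Pik3cg, a PI3-kinase subunit of leukocytes, higher in knockout cells at 4.47 against 2.41 FPKM (0.86), where 4.76% of all genes were called, and 1 more was lower with edgeR or DESeq2. LPS raised 9 and lowered 7 in wild-type cells, against 40.4% of all genes, and raised 8 and lowered 6 in knockout cells, against 38.9%, but raised 10 and lowered 1 in each with edgeR or DESeq2. Jak2 rose from 11 to 197 FPKM in wild-type cells (4.15) and Stat5a from 3.59 to 39 FPKM (3.41). In knockout cells Jak2 rose by 4.30 and Stat5a by 3.11. The interaction called 1, Pik3cg at 0.80, against 2.91% of all genes, and with DESeq2 1 more that was lower. The medians were 0.04, 0.11, 0.30, 0.28 and 0.11.

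Of 12 negative regulators of these receptors, 2 were called higher and 2 lower in the PBS libraries of RAW264.7 labelled knockout, or 1 higher and 2 lower with edgeR and 1 higher and 1 lower with DESeq2, and 2 higher and 2 lower with LPS. Over all genes 8.55% and 17.3% were called. The PBS split was again 2 and 2 without replicate 1 labelled knockout, against 20.8% of all genes. On the TPM scale 2 were higher and 1 lower in each. Cbl, a ubiquitin ligase that marks Csf1r for destruction, was higher in both, at 27.8 ± 13.7 against 7.96 ± 0.24 FPKM with PBS (1.63, and 2.15 without replicate 1) and 29.1 against 7.74 FPKM with LPS (1.90). Dok2, an adaptor that damps tyrosine kinase signals, was lower in both (-0.66 with PBS, -0.84 without replicate 1, and -1.19 with LPS). LPS raised 4 and lowered 3 in each RAW264.7 genotype, against 18.3% and 22.1% of all genes, with Socs3, an inhibitor of G-CSF receptor signals, up by 4.33 in wild-type cells and 4.03 in the libraries labelled knockout. Inpp5d, the lipid phosphatase SHIP1, fell by 1.66 and by 2.45. Without PBS replicate 1 the split was the same, against 21.8% of all genes. The second values were then 4.08 for Socs3 and -2.62 for Inpp5d. The interaction called 1 lower, Ptpn6, the phosphatase SHP-1, at -0.81 (-0.73 without PBS replicate 1), against 1.95% of all genes. It called 2 lower without PBS replicate 1, against 3.41% of all genes, with edgeR, against 3.23%, and with DESeq2, against 2.01%. The medians were -0.01, -0.15, 0.02, 0.12 and 0.05.

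In BMDMs 2 of the 12 regulators were higher in knockout cells with PBS, among them Socs3 (0.76), against 1.81% of all genes, or 1 with the median ratio. With LPS 2 were lower, Socs1, an inhibitor of JAK kinases, at 15.6 against 32.4 FPKM (-1.04) and Cblb, a ubiquitin ligase related to Cbl, at 1.77 against 2.77 FPKM (-0.62), against 4.76% of all genes. LPS raised 6 and lowered 5 in each genotype, against 40.4% and 38.9% of all genes, and with edgeR or DESeq2 raised 7 in each and lowered 4 in wild-type and 3 in knockout cells. Socs3 rose from 0.673 to 263 FPKM in wild-type BMDMs (8.41), and Inpp5d fell from 42.9 to 2.43 FPKM (-4.09). The interaction called 1 lower, Cblb at -0.80, against 2.91% of all genes, and 3 lower with edgeR or DESeq2. The medians were 0.00, 0.04, 0.42, 0.64 and -0.17.

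**Figure D4:**
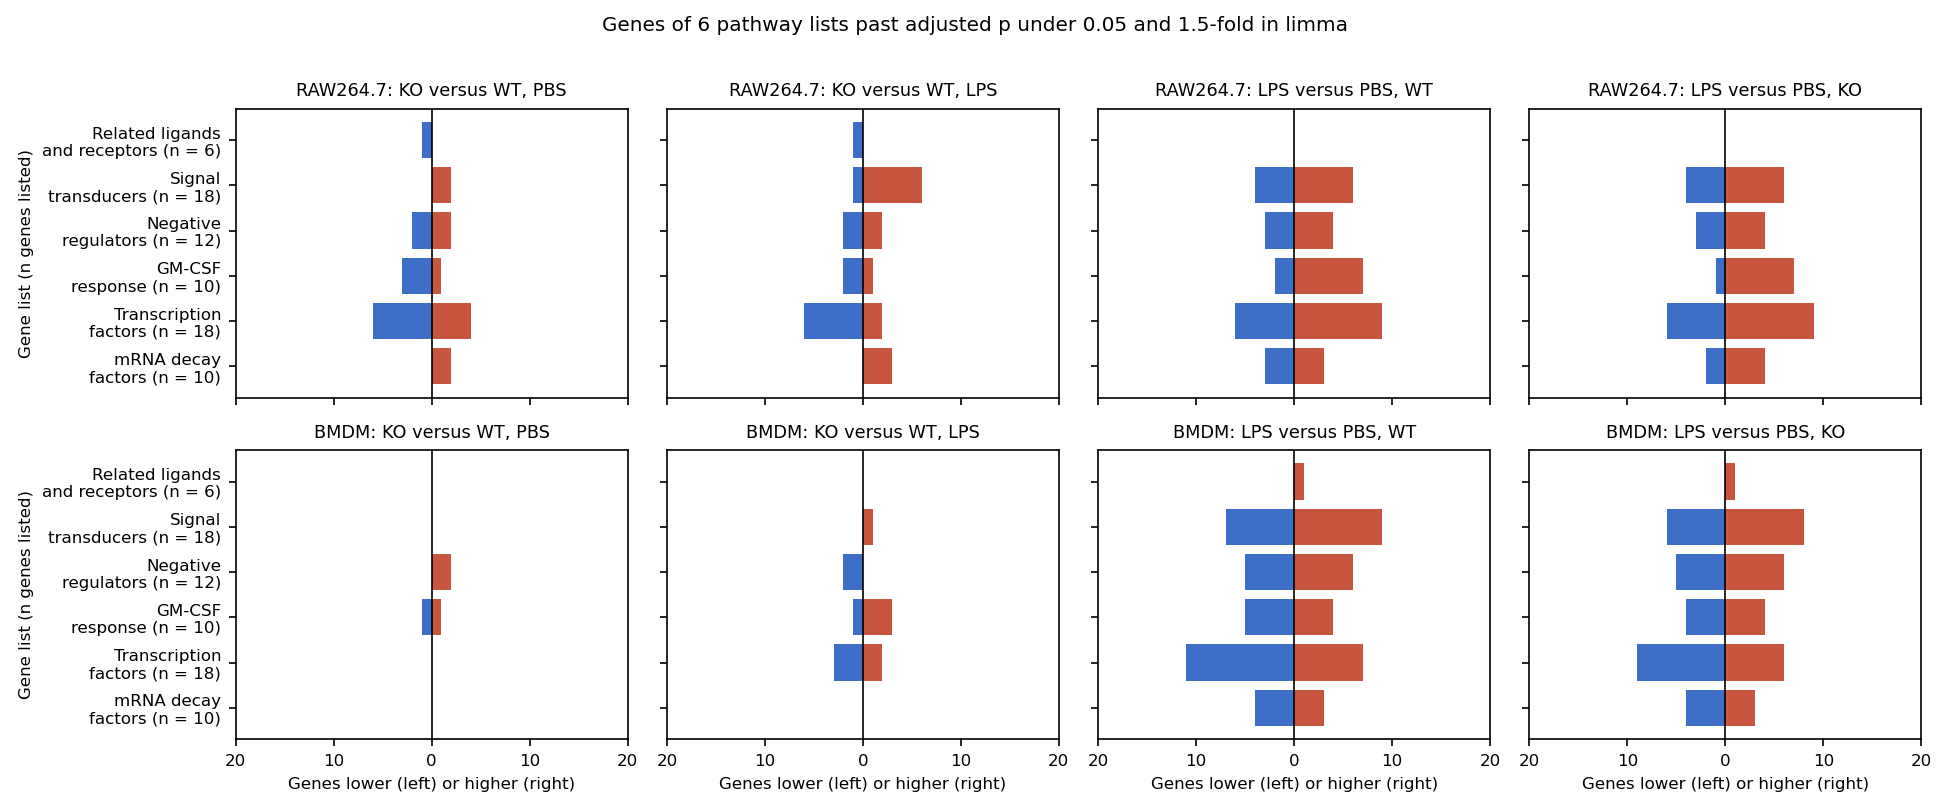
Number of genes called higher (right, red) and lower (left, blue) by limma in each pathway list, with the number of genes listed, for knockout (KO) against wild type (WT) and LPS against PBS. Among 18 transcription factors, 7 are higher and 11 lower with LPS in wild-type BMDMs, or 7 and 5 with edgeR or DESeq2.

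Of 10 genes known to respond to GM-CSF, 1 was higher and 3 lower in the PBS libraries of RAW264.7 labelled knockout, and 1 higher and 2 lower with LPS, or 3 higher and 3 lower with edgeR or DESeq2 and 2 higher and 1 lower on the TPM scale. Over all genes 8.55% and 17.3% were called. The PBS split was the same without replicate 1 labelled knockout, against 20.8% of all genes. Irf4, a transcription factor of GM-CSF-grown macrophages and dendritic cells, was higher in both treatments, at 1.11 against 0.25 FPKM with PBS (1.78, and 2.04 without replicate 1) and 4.6 against 0.77 FPKM with LPS (2.49). Ccl17, a chemokine, was lower with LPS at 6.6 against 27.5 FPKM (-2.05). LPS raised 7 and lowered 2 in wild-type cells, with 0 lower by edgeR or DESeq2. It raised 7 and lowered 1 in the libraries labelled knockout, with or without PBS replicate 1. The shares of all genes called were 18.3% and 22.1%, and the second was 21.8% without PBS replicate 1. Ccl22, another chemokine, rose from 0.183 to 196 FPKM in wild-type cells (9.59) and from 0.0467 to 343 FPKM in the libraries labelled knockout (11.24, and 11.41 without PBS replicate 1). The genotype difference of Ccl22 with LPS was 0.81 and not called (limma adjusted p 0.156). Cish, a target and inhibitor of STAT5, rose by 5.66 in wild-type cells and by 5.70 in the libraries labelled knockout (5.79 without PBS replicate 1). The interaction called 2 higher and 1 lower, with Pim1, a kinase gene switched on by STAT5, at 0.84 and Ccl17 at -2.87, and 1 higher and 0 lower on the TPM scale, against 1.95% of all genes. Leaving out PBS replicate 1 gave 0.95 and -2.76. The medians were -0.42, 0.08, 2.06, 2.74 and 0.71.

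In BMDMs 1 of these 10 was higher and 1 lower in knockout cells with PBS, the latter Cd74, the invariant chain of antigen presentation, at 48.9 against 76.3 FPKM (-0.64), and with the median ratio 0 were higher and 1 lower. With LPS 3 were higher and 1 lower in knockout cells. Over all genes 1.81% and 4.76% were called. Ccl17 was higher at 9.95 against 2.3 FPKM (2.05), Ccl22 at 103 against 43.1 FPKM (1.26) and Bhlhe40, a transcription factor, at 3.99 against 2.03 FPKM (0.94). Pparg, a nuclear receptor, was lower at 1.03 against 1.6 FPKM (-0.60). LPS raised 4 and lowered 5 in wild-type cells, against 40.4% of all genes, and raised 4 and lowered 4 in knockout cells, against 38.9%, or raised 5 and lowered 3 in each with edgeR or DESeq2. The interaction called 2 higher, Ccl17 at 2.05 (limma adjusted p 0.0297) and Bhlhe40 at 0.62, against 2.91% of all genes. With edgeR or DESeq2 it called 0 higher and 1 lower. The medians were 0.07, 0.39, -0.39, -0.05 and 0.34. Whether these genes moved through GM-CSF was not tested.

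Of 18 transcription factors of these genes, 4 were higher and 6 lower in the PBS libraries of RAW264.7 labelled knockout, and 2 higher and 6 lower with LPS. On the TPM scale 7 were higher and 5 lower with PBS, with edgeR or DESeq2 5 and 7, and without replicate 1 labelled knockout 6 and 6. Over all genes 8.55% and 17.3% were called, and 20.8% with PBS without replicate 1. With LPS the AP-1 subunits Jun (2.06 against 11 FPKM, -2.38) and Fos (3.23 against 12.1 FPKM, -1.89) and Cebpb, a factor of inflammatory genes (16.4 against 49.8 FPKM, -1.61), were lower. Rel, an NF-kappaB subunit of lymphoid and myeloid cells, was higher at 81.6 against 29.3 FPKM (1.47). With PBS Ets2, a factor of the ETS family, was lower at 4.18 against 21.7 FPKM (-2.35, and -2.33 without replicate 1). Jun (-1.48), Fos (-1.25) and Cebpb (-1.05) were called lower and Rel (0.90) higher with PBS as well. Without replicate 1 these values were -1.47, -1.16, -1.25 and 1.21 in that order. LPS raised 9 and lowered 6 in each RAW264.7 genotype, against 18.3% and 22.1% of all genes, with Nfkb1, the NF-kappaB p105 gene, up by 2.88 and 2.92 (2.82 without PBS replicate 1). The interaction called 1 higher, Ets2 at 1.11 (1.09 without PBS replicate 1), against 1.95% of all genes. It called 2 lower as well with edgeR (3.23% of all genes), with DESeq2 (2.01%) and without PBS replicate 1 (3.41%). The medians were -0.18, -0.15, 0.50, 0.20 and -0.17.

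In BMDMs limma called 0 of the 18 factors between genotypes with PBS, against 1.81% of all genes, with 5 at an unadjusted p under 0.05 and 0 by edgeR and DESeq2. With LPS 2 were higher and 3 lower in knockout cells, against 4.76% of all genes. Irf8, a factor of monocyte and macrophage development, was lower at 40.1 against 171 FPKM (-2.09, limma adjusted p 2.26e-07), and Ets2 was higher at 12 against 6.13 FPKM (0.96). LPS raised 7 and lowered 11 in wild-type cells, or raised 7 and lowered 5 with edgeR or DESeq2, and raised 6 and lowered 9 in knockout cells, or 8 and 7 with edgeR or DESeq2. Over all genes 40.4% and 38.9% were called by limma. Cebpa, a factor of myeloid progenitors, fell from 56.7 to 0.633 FPKM (-6.28) in wild-type cells. The interaction called 3 higher and 3 lower, with Irf8 at -1.83, against 2.91% of all genes. The medians were 0.01, 0.13, -1.03, -0.86 and 0.15.

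Of 10 factors that govern the decay of AU-rich cytokine mRNAs, 2 were higher and 0 lower in the PBS libraries of RAW264.7 labelled knockout, or 3 higher and 1 lower with edgeR or DESeq2, and 3 higher and 0 lower with LPS. Over all genes 8.55% and 17.3% were called. Without replicate 1 labelled knockout 3 were higher and 0 lower with PBS, against 20.8%. Zc3h12c, of the Regnase family of RNases, was higher in both, at 9.86 ± 4.94 against 2.83 ± 0.165 FPKM with PBS (1.60, and 2.13 without replicate 1) and 92.5 against 16.6 FPKM with LPS (2.47). Rc3h1, which encodes the RNA-binding protein Roquin-1, was higher with LPS by 0.91. LPS raised 3 and lowered 3 in wild-type cells, or raised 4 and lowered 2 with edgeR or DESeq2, and raised 4 and lowered 2 in the libraries labelled knockout, or lowered 3 without PBS replicate 1 (21.8% of all genes called) and raised 5 with edgeR or DESeq2. The shares of all genes called were 18.3% and 22.1%. Zfp36, which encodes tristetraprolin, the protein that binds AU-rich elements, rose from 12.7 to 91.9 FPKM in wild-type cells (2.84) and from 14.1 to 66.5 FPKM in the libraries labelled knockout (2.23, and 2.20 without PBS replicate 1). The interaction called it lower, at -0.61 and -0.64 without PBS replicate 1, against 1.95% of all genes, which was lost on the TPM scale, with the median ratio and with DESeq2. The medians were 0.10, -0.07, 0.02, 0.10 and 0.09.

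In BMDMs limma called 0 of the 10 decay factors between genotypes with PBS, 0 with LPS and 0 for the interaction, with 0, 6 and 5 at an unadjusted p under 0.05 and 0 by edgeR and DESeq2, against 1.81%, 4.76% and 2.91% of all genes. LPS raised 3 and lowered 4 in each genotype, against 40.4% and 38.9% of all genes, or raised 5 and lowered 4 in each with edgeR. Zfp36l1, a relative of tristetraprolin, fell from 68.3 to 0.813 FPKM in wild-type cells (-6.25), and Zc3h12a, which encodes Regnase-1, rose by 2.67. The medians were 0.02, 0.11, -0.20, -0.22 and 0.13.

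The genes with the pattern most like each member were found by Pearson correlation of log2(FPKM + 0.1) over the 12 libraries of a cell type, given as a description with no test, since the 12 libraries form 4 groups. In RAW264.7 cells, over 12301 genes compared, Csf3 was nearest to the chemokine Ccl20 (r 0.9966, Spearman rho 0.903), the cytokine Osm (0.9940) and Ifi203 (0.9936). Csf2 was nearest to the protease Mmp9 (0.9903, rho 0.858), the cytokine Il36a (0.9892) and Tsc22d1 (0.9891). Osm held 1.18, 1.42, 15.4 and 5.23 FPKM in wild-type PBS, labelled knockout PBS, wild-type LPS and labelled knockout LPS, and Mmp9 0.0267, 0.0167, 9.57 and 0.54 FPKM. Csf1 was nearest to the nuclear receptor Nr4a3 (0.9975, rho 0.974), Bcl2a1a and the adenosine receptor Adora2a. Among the receptors, Csf1r was nearest to Serinc3 (0.9976), B4galt1 and Inf2, and Csf2ra to the metallothionein Mt2 (0.9884), Sqstm1 and Ptpn22. Csf2rb was nearest to Tiam1 (0.9694), Mapre2 and Cdc42ep3, and Csf3r to Cep95 (0.9698), Ttll3 and Fads6.

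In BMDMs, over 11431 genes compared, Csf1 was nearest to Sgk3 (0.9993), the cytokine Il1a (0.9992) and Slc15a3 (0.9992). Csf2 was nearest to Ece1 (0.9937), Ncf4 (0.9910) and Lrrc25, and Csf3 to Myadm (0.9907), Prkcd (0.9906) and Ncf4 (0.9878), so that Ncf4, an NADPH oxidase subunit, was among the nearest of both. Ncf4 held 31.9, 30.9, 37.3 and 53 FPKM in wild-type PBS, knockout PBS, wild-type LPS and knockout LPS. Csf1r was nearest to Rasa3 (0.9993), Rasgrp3 and Cnnm2. Csf2ra was nearest to Gm29397 (0.9862), Matk and Klhl36, Csf2rb to Ly9 (0.9661), Erap1 and Pirb, and Csf3r to Ece1 (0.9860), Prdm1 and Slc39a14. With Spearman's rank correlation 2 of the 42 pairs of a member and a nearest gene in both cell types were kept, so these names depend on the measure.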

How the data were processed

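For each cell type the authors deposited raw counts, FPKM and the gene size behind them, and FPKM recomputed here from counts, gene size and totals matched within 0.0050. The sources at hand state neither aligner, counting program nor strand of counting, and the labels name build mm10. Genes with FPKM above 0 in at least 1 library were fitted as log2(FPKM + 0.1) with limma 3.58.1 in R 4.3.3, 1 fit per cell type with 4 group means, moderated variances and Benjamini-Hochberg adjustment over all genes. Alternatives were added values of 0.01 and 1 FPKM, a filter of 1 FPKM in 3 libraries, TPM, median-ratio size factors, edgeR 4.0.16 and DESeq2 1.42.0 on counts, fits on fewer groups, a replicate block, the sum of Csf2rb and Csf2rb2, and leaving out each library. A further alternative called genes by adjusted p alone, without the fold threshold. For lists, markers and Csf2rb2, leaving out PBS replicate 1 labelled knockout of RAW264.7 was chosen after seeing the data. The linear models were tested on simulated data in which only genes with ample counts were changed. That test does not cover changes of genes with very few counts, such as Csf2 and Csf3 with PBS. Named genes are all 7 members, Csf2rb2 and Olfml3, at most 4 called genes per list and comparison by largest log2 fold change among those with a mean of at least 1 FPKM in a group, and the 3 nearest genes by Pearson correlation. Il3, Il5, Il3ra, Il34, Hmgxb3, Gm12223 and single markers were named after their values were seen. Members and lists were chosen with earlier results of these data known. Sequences came from RefSeq (GRCm38.p6) and GENCODE M21.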

Additional observations from a re-analysis of the deposited data

Results flagged for a closer look

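The limma interaction of genotype and LPS was called for 5 ligand and receptor measurements, given as the log2 fold change by LPS under the knockout label minus that in wild type. In RAW264.7 cells, where the level of Olfml3 goes against the knockout label, the values were -5.46 for Csf2 (limma adjusted p 0.00135), -5.18 for Csf3 (2e-04) and -0.72 for Csf1r (0.00875). With an added 0.01 FPKM the first 2 calls were lost at values about as large (limma adjusted p 0.279 and 0.124). Csf2 was also lost with edgeR (adjusted p 0.342 and 0.519), and Csf1r on the TPM scale (limma adjusted p 0.148). Csf2 and Csf3 were near 0 with PBS, so their values largely restate the LPS difference between the genotypes. In BMDMs they were 3.12 for Csf2 (limma adjusted p 0.00024) and 2.69 for Csf3 (0.000127). The Csf3 value in BMDMs is the genotype difference with LPS restated, because all PBS libraries were at 0, and it was 2.93 to 2.94 with edgeR (adjusted p 1) and 2.88 with DESeq2 (0.283). Csf2 was at 0 in knockout BMDMs with PBS, so the added 0.1 FPKM sets its baseline. These BMDM values do not show that the genotypes differ in their fold change by LPS.

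Other results had opposite signs in RAW264.7 cells and BMDMs with no overlap of the libraries compared in either, and the difference between the cell types was not tested. The genotype difference with LPS was -5.69 in RAW264.7 cells and 2.67 in BMDMs for Csf2, and -4.83 and 2.69 for Csf3. The LPS difference of Csf2ra was 0.57 and -0.39 in wild type and 0.45 in the RAW264.7 libraries labelled knockout and -0.29 in knockout BMDMs, and with size factors by the median ratio the BMDM values became 0.41 and 0.40. That of Csf2rb was -0.75 in the RAW264.7 libraries labelled knockout and 0.35 in knockout BMDMs, and that of Csf3r in wild type was -0.70 and 0.25. Of these LPS differences limma on the main scale called that of Csf2rb in RAW264.7 cells alone, and with the median ratio this call was lost (-0.51). With the median ratio limma called Csf2ra in wild-type RAW264.7 cells (0.81) and in the RAW264.7 libraries labelled knockout (0.71). It also called Csf2rb in knockout BMDMs (1.04) and Csf3r in wild-type BMDMs (1.05).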

How the results depend on the processing

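Among 1398 log2 fold changes of single genes under an alternative, 1330 kept their call status, 39 were newly called and 29 lost the call. No called value turned direction. The 39 include genes called by adjusted p alone, an alternative without the fold threshold. Their values were those of the main fit and still under that threshold, as for Csf1r between RAW264.7 genotypes with PBS (0.37, limma adjusted p 0.015). The number of members called between RAW264.7 genotypes with PBS, 2 in the limma fit, was 1 with an added 0.01 FPKM, on the TPM scale, with the median ratio and with these groups fitted alone, and 1 to 2 when a library was left out. The RAW264.7 interaction count of 3 was 1 with an added 0.01 FPKM. The count between BMDM genotypes with PBS, 0, was 0 to 1 when a library was left out. The count for LPS in wild-type BMDMs, 4, was 2 with an added 1 FPKM. The BMDM interaction count of 2 was 1 with edgeR and its filter, 0 with edgeR without a filter and 0 with DESeq2, which gave Csf2 no adjusted p. The cause of these differences was not tested. Csf2 and Csf3 with PBS rest on at most 5 counts a group, so depth limits their folds.

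Replicate numbers were not treated as pairs in the main fit. With a replicate block the member counts were those of the fit without it in all 10 comparisons. After removal of group means, 12 of 12 BMDM libraries were most alike to a library of their own number, against 3 of 12 in RAW264.7 cells, and 1 of 18 same-number correlations in BMDMs was over 0.1.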
